A study of Mus musculus with 33 samples.

Results

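The 12 mice described here were given either venetoclax, an inhibitor of the anti-apoptotic protein BCL2, or ruxolitinib, an inhibitor of the kinases JAK1 and JAK2, and their bone marrow was taken 3 or 7 days post-treatment. They were chosen by their treatment and day labels, and they are 12 of the 33 mice of the series: 3 venetoclax and 3 ruxolitinib mice on day 3, and 3 of each on day 7. The 6 venetoclax mice were compared directly with the 6 ruxolitinib mice, with no vehicle in the contrast. All were female C57BL/6 WT mice aged 6 to 8 weeks. Venetoclax was given by oral gavage once daily for 2 days in phosal, polyethylene glycol 400 and ethanol, and ruxolitinib was given by oral gavage 2 times a day for 2 days in DMSO, polyethylene glycol 300 and water. The deposited text gives the doses as 100 mg/ml and 180 mg/ml, and the study's methods give the same figures per kg. The series also holds 2 mice per vehicle on each day (8 vehicle mice on days 3 and 7), the corresponding mice of day 1 and 3 untreated mice. RNA of total bone marrow was hybridised to NanoString nCounter probes, colour-coded tags that are counted without amplification, in 1 lane per mouse.

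Bone marrow is where B cells form. Precursors depend on the IL-7 receptor, commit to the lineage through the transcription factor PAX5, cut and join their antibody genes with the RAG1 recombinase, and test the new heavy chain with a surrogate light chain that includes Igll1 (lambda5), before CD79B and a complete antibody form the B cell receptor. The IL-7 receptor signals through JAK1 and JAK3, and mature lymphocytes depend on BCL2 to different degrees, so both drugs act on pathways that lymphoid cells use. MHC class II (MHC-II) proteins, carried by B cells, dendritic cells and macrophages, present peptides to CD4+ T cells. Their chains are encoded by H2-Aa, H2-Ab1 and H2-Eb1, and their peptides are loaded with the help of CD74 and H2-DM.

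The 12 lanes held 26881 to 466096 counts of endogenous probes, and 33.6% to 79.3% of the 750 endogenous probes in a lane were above background, which is the mean plus 2 SD of the 8 negative control probes. Lanes of 3 mice held fewer than 60000 counts: ruxolitinib replicate 1 of day 3, venetoclax replicate 2 of day 7 and ruxolitinib replicate 3 of day 7. Neutrophil markers were high in both groups, with 5 markers that summed to 47453 to 110765 scaled counts per mouse, and the epithelial markers summed to 11.9 to 33.02, with none of them above background in all 6 lanes of a group. A scaled count is a raw count divided by the lane's level of 11 housekeeping probes. The 11 lanes of each day formed 1 run, so day and run cannot be told apart. Within each run the venetoclax mice held earlier lanes than the ruxolitinib mice, so lane position and drug cannot be told apart either.

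The genes below that differed most include B-lineage genes and MHC-II genes. To show the DNA in front of them, the 200 bases upstream of the annotated start are given for Rag1 and Igll1, the B-lineage genes with the greatest differences on day 3 taken alone (over both days Igll1 differed little), and for H2-Eb1, H2-DMb2 and H2-Aa, the MHC-II genes with the greatest differences, from RefSeq on build GRCm38.p6 and on the strand of the gene. Capitals in the first pair mark the E-box letters CAGCTG and CAGGTG, a class of sites that E2A proteins recognise. Rag1 lies on the minus strand at chr2:101649533-101649732, and Igll1 on the minus strand at chr16:16863986-16864185.
Rag1: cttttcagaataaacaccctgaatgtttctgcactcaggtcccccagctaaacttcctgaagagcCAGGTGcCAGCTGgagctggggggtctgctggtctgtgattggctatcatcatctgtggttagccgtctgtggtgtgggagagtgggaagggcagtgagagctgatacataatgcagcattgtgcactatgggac
Igll1: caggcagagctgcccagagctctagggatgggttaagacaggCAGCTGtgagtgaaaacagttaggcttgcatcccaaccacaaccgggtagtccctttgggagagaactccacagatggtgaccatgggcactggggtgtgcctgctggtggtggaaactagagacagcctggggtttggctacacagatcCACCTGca

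Capitals in the MHC-II sequences mark the Y box, GATTGG, and the core of the X box, CAACNGATG, elements of the promoters that the transactivator CIITA works on. H2-Eb1 is on the plus strand at chr17:34305667-34305866, H2-DMb2 on the plus strand at chr17:34145049-34145248, and H2-Aa on the minus strand at chr17:34287824-34288023.
H2-Eb1: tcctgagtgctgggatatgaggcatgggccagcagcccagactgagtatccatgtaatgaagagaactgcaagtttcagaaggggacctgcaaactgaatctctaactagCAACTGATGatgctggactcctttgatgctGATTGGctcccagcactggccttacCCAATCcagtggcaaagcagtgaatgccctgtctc
H2-DMb2: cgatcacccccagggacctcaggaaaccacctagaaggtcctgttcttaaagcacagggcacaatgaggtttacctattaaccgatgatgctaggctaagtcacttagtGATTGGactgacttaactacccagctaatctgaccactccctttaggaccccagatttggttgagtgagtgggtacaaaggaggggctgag
H2-Aa: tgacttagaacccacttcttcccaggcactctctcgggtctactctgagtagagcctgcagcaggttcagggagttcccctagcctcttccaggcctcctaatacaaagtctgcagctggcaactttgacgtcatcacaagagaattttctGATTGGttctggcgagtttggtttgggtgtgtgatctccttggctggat

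Both strands were searched, and a match is a description of these letters and not evidence of binding. The Y box was found in all 3 MHC-II windows and in 12.9% of the 32851 promoter windows of this length. The X box core was found in H2-Eb1 alone of the 3 and in 0.371% of all windows. Only the letters CAACNGATG were searched for it, so a window without a match may still hold a variant of the element. CAGCTG was found in both B-lineage windows and in 10.9% of all windows, and CAGGTG in both and in 13.9% of all windows. Neither of these E-box strings was found in the windows of Pax5 and Il7r, the other called B-lineage genes with an entry, and the Gzma window holds CAGGTG at 2 places. The matches were not exclusive to a group, since the Rag1 window also holds GATTGG and the H2-Aa window also holds CAGCTG. Of the 14 genes looked up, 12 had an entry.

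Over days 3 and 7, genes of B cell precursors such as Rag1 and Pax5 were higher after venetoclax than after ruxolitinib, and the MHC-II genes H2-Eb1 and H2-DMb2 were lower. In edgeR's quasi-likelihood test with day as a block, 11 of 575 genes differed at an adjusted p under 0.05, and such genes are referred to as called. Of these, 8 were higher after venetoclax (Rag1, Il2ra, Irf4, Pax5, Gzma, Il7r, Cd79b and Slamf7) and 3 were lower (H2-DMb2, H2-Eb1 and Cxcl12). The called genes are 1.91% of those tested. With TMM scaling 16 genes were called, 7 higher and 9 lower, and with scaling by total count 8 were called, 3 higher and 5 lower, so the balance of directions moved with the scaling. With limma on log2(scaled count + 1) the count was 1, Rag1 (adjusted p = 0.0378). The count was 6 without venetoclax replicate 1 of day 3, 6 without ruxolitinib replicate 3 of day 3, and 7 without ruxolitinib replicate 2 of day 7. It was also 7 without the 3 shallow lanes, all of them among the 11.

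Rag1, which encodes a subunit of the recombinase that assembles antibody genes, had the greatest difference among the called genes. Its scaled counts were 75.7, 124 and 42.5 in venetoclax mice and 33.02, 20.2 and 12.4 in ruxolitinib mice on day 3. On day 7 they were 86.9, 45.1 and 58.4 after venetoclax and 16.4, 24.96 and 9.32 after ruxolitinib. The lowest venetoclax mouse was above the highest ruxolitinib mouse of either day. Rag1 was upregulated 3.65-fold in venetoclax relative to ruxolitinib mice (log2 difference 1.87, SE 0.27, adjusted p = 0.000341), with an exact permutation p of 0.005, the smallest that the 400 arrangements within days allow. The differences were 2.06 on day 3 (adjusted p = 0.0113) and 1.70 on day 7 (adjusted p = 0.0227). Rag1 was above background in 4 of 6 ruxolitinib lanes, and without the 3 shallow lanes the difference was 1.97 (adjusted p = 0.00143). The call was kept in 11 of 12 alternatives and lost with limma after background subtraction (2.36, adjusted p = 0.0533).

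Pax5, the transcription factor that commits cells to the B lineage, followed with overlapping groups. Venetoclax mice had 64.0 to 258 scaled counts (median 116) and ruxolitinib mice 43.1 to 93.6 (median 61.2), with the venetoclax mice above the ruxolitinib mice on day 3 but not on day 7, where the groups overlapped. The log2 difference was 1.12 (SE 0.24, adjusted p = 0.0102). Il7r, the alpha chain of the IL-7 receptor, ranged from 75.3 to 158 (median 116) after venetoclax and from 38.4 to 110 (median 62.0) after ruxolitinib. On day 7 its 3 venetoclax mice were above its 3 ruxolitinib mice, and on day 3 the groups overlapped. The log2 difference of Il7r was 0.93 (SE 0.22, adjusted p = 0.0265). The call of Pax5 was kept without each mouse in turn, whereas that of Il7r was lost in 6 of 12 such fits, with the highest adjusted p, 0.102, without ruxolitinib replicate 3 of day 3.

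Cd79b, a signalling chain of the B cell receptor, differed mainly in the day 7 mice. On day 3 venetoclax mice had 122, 106 and 117 scaled counts and ruxolitinib mice 82.6, 123 and 63.2. On day 7 venetoclax mice had 375, 256 and 237 and ruxolitinib mice 91.0, 147 and 114.9. The groups overlapped on day 3 and were apart on day 7. The log2 difference was 0.31 on day 3 (adjusted p = 0.790), 1.29 on day 7 (adjusted p = 0.00921) and 0.82 over both days (SE 0.21, adjusted p = 0.0384). The change between the days was not called (adjusted p = 0.791), and the call over both days was lost in 8 of 12 fits that left out 1 mouse, with the highest adjusted p, 0.120, without venetoclax replicate 1 of day 7. That call was also lost without the 3 shallow lanes (0.77, adjusted p = 0.154).

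**Figure D1:**
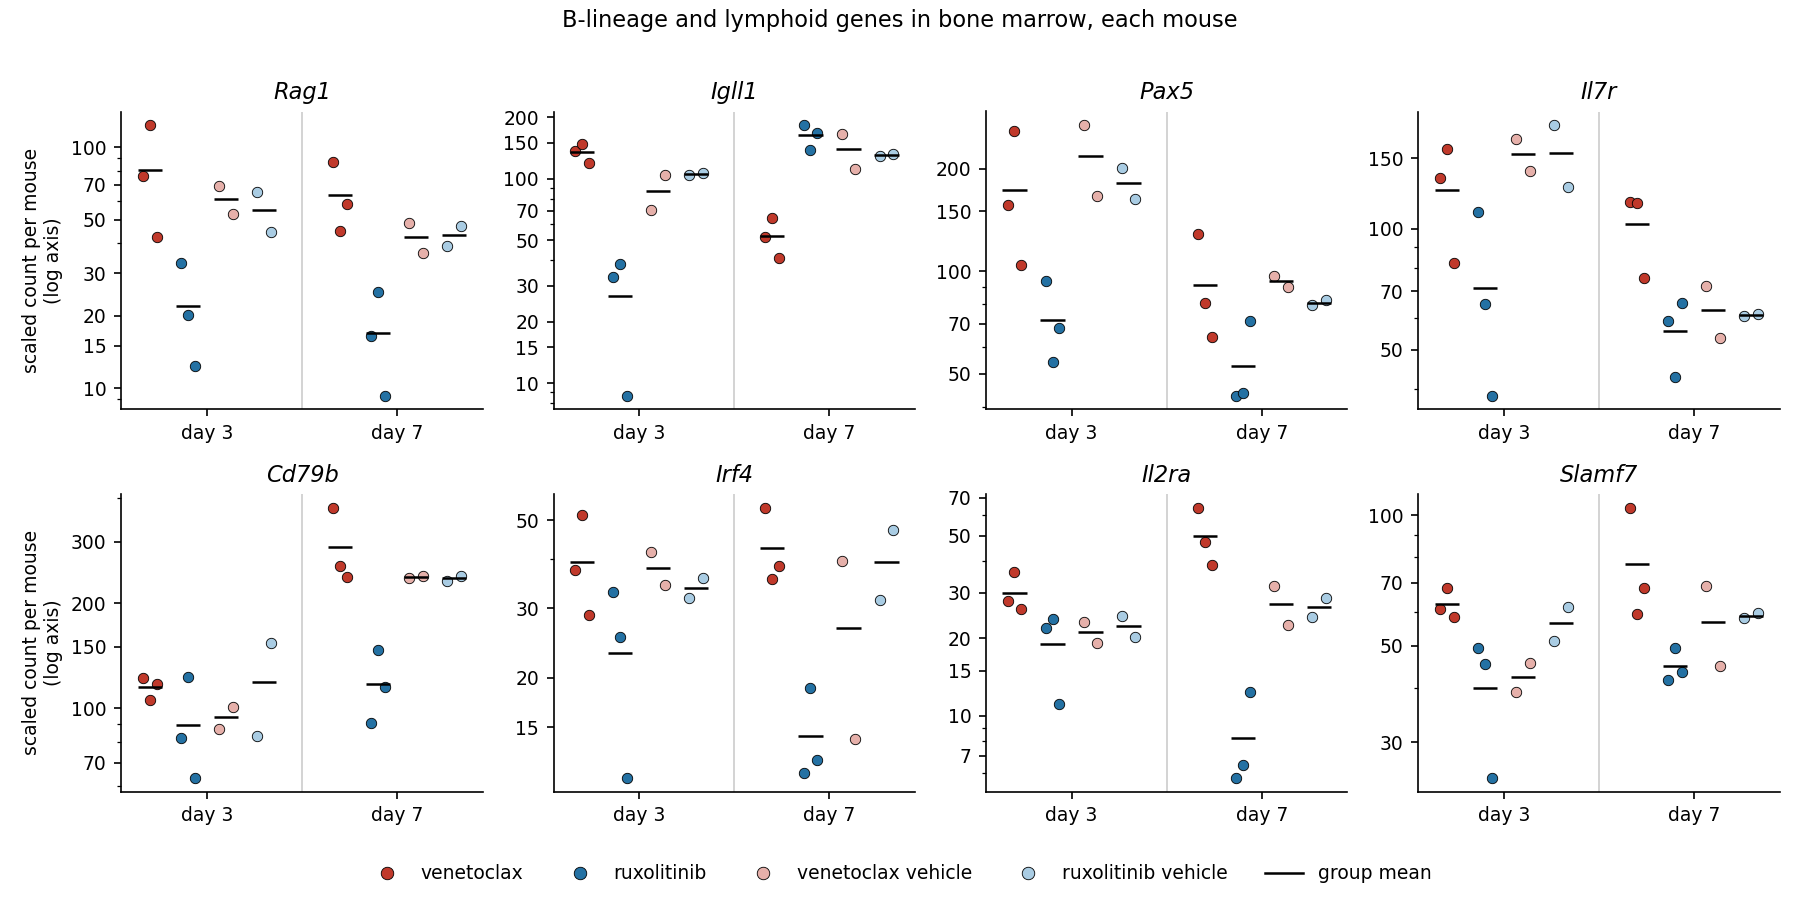
Scaled counts per mouse (log axes) of 8 B-lineage and lymphoid genes on days 3 and 7, for venetoclax and ruxolitinib mice and the mice given each vehicle; each point is 1 mouse and each line a group mean. Rag1 is lower in all 6 ruxolitinib mice than in any venetoclax mouse, and Igll1 is ordered one way on day 3 and the other way on day 7.

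Igll1, a component of the surrogate light chain of the pre-B cell receptor, changed direction between the days and so had a difference of only 0.15 over both (SE 0.51, adjusted p = 0.991). On day 3 it was 137, 148 and 120 in venetoclax mice and 33.02 (in the shallowest lane and not above background), 38.4 and 8.68 in ruxolitinib mice. This was a 4.89-fold higher level after venetoclax (log2 difference 2.29, SE 0.33, adjusted p = 0.000454). On day 7 it was 52.1, 64.0 and 40.9 after venetoclax and 184, 139 and 168 after ruxolitinib, a log2 difference of -1.71 (SE 0.31, adjusted p = 0.00470). The groups did not overlap on either day, and their order was opposite. The difference on day 7 minus that on day 3 was -4.00 (SE 0.45, adjusted p = 9.37e-06), and it was called in all 7 alternatives run and in all 12 fits that left out 1 mouse. Of all genes, 0.348% were called for such a change between days, Igll1 and Il2ra. The vehicle mice had means of 87.2 ± 23.9 (venetoclax vehicle, SD, n = 2) and 106 ± 2.09 (ruxolitinib vehicle, SD, n = 2) on day 3, and 140 ± 38.5 and 131 ± 3.10 on day 7, so the low values were those of ruxolitinib mice on day 3 and of venetoclax mice on day 7. On day 3 the venetoclax mice (120 to 148) were also above the vehicle mice (70.3 to 107).

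Over the whole list of B cell precursor and B lineage genes, 17 of 25 were on the panel and 16 were tested, the exception being Mme, which was above background in 0 of 12 lanes. All 16 tested members had a difference above 0, 4 were called (Rag1, Pax5, Il7r and Cd79b) and 12 had an unadjusted p under 0.05, where 7.13% of all genes were higher at that threshold. The median of the list was 0.69, beside 0.03 for all genes, and the members ranged from 0.11 to 1.87. Members named after their values were seen included Cd79a (1.06, adjusted p = 0.108), Pou2af1, a B cell coactivator (0.92, adjusted p = 0.0708), and the adaptor Blnk (0.68, adjusted p = 0.228), which were not called. With scaling by total count 15 of the 16 members were above 0, 2 were called and the median was 0.57, and without the 3 shallow lanes all 16 were above 0 and 3 were called. In bulk marrow, fewer cells of a type and less RNA per cell cannot be told apart.

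Among mature B cell genes the directions were mixed, with 7 above 0 and 6 below. Of the 13 tested members 0 were called, 5 were higher and 2 lower at an unadjusted p under 0.05 (7.13% and 4% of all genes), and their median was 0.02. Cd37, a tetraspanin of B cells, had a difference of 0.41 (adjusted p = 0.130) and the BAFF receptor gene Tnfrsf13c one of 0.65 (adjusted p = 0.285). Cxcr5, the receptor that guides B cells to follicles, had a difference of -0.98 (adjusted p = 0.0969). The chemokine receptor gene Ccr6 had 1.44 to 4.74 scaled counts after venetoclax and 5.50 to 11.2 after ruxolitinib with no overlap, but it was above background in 1 of 6 and 4 of 6 lanes, was tested only through its ruxolitinib lanes and was not called.

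Il2ra, Irf4, Slamf7 and Gzma, genes of other lymphoid lists, were also called higher after venetoclax. Il2ra, the alpha chain of the IL-2 receptor, present on activated and regulatory T cells and on some B cell precursors, was 27.9, 36.0 and 25.9 in venetoclax mice and 22.01, 23.7 and 11.2 in ruxolitinib mice on day 3. On day 7 it was 64.3, 47.4 and 38.4 after venetoclax and 5.74, 6.46 and 12.4 after ruxolitinib. All 6 venetoclax mice were above all 6 ruxolitinib mice in scaled counts, although Il2ra was above background in only 4 of 6 ruxolitinib lanes. Il2ra was upregulated 3.16-fold over both days (log2 difference 1.66, SE 0.33, adjusted p = 0.00762). The difference was 0.61 on day 3 (adjusted p = 0.590) and 2.83 on day 7 (adjusted p = 2.67e-05), and the change of 2.23 between the days (SE 0.47) was called (adjusted p = 0.0328) but was kept in only 2 of 7 alternatives and in 4 of 12 fits without 1 mouse, with adjusted p up to 0.647. In 2 of the 3 shallow lanes, both of ruxolitinib mice, Il2ra, Rag1 and Irf4 were not above background. Without the 3 shallow lanes the difference of Il2ra was 1.66 (adjusted p = 0.0287).

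Of the 6 tested plasma cell genes, Irf4 and Slamf7 were called, whereas 1 was called with TMM and 0 with total count scaling. Irf4, a transcription factor of pre-B cells and plasma cells, was 28.8 to 53.9 (median 37.9) in venetoclax mice and 11.2 to 33.02 (median 15.6) in ruxolitinib mice, with 1 ruxolitinib mouse of day 3, in the shallowest lane and not above background, higher than the lowest venetoclax mouse. Its log2 difference was 1.17 (SE 0.24, adjusted p = 0.00827), with 0.85 on day 3 and 1.48 on day 7 (adjusted p = 0.0227). Slamf7, a surface receptor of plasma cells and NK cells, was 58.3 to 104 (median 64.5) after venetoclax and 24.8 to 49.5 (median 44.5) after ruxolitinib. The 2 groups of Slamf7 did not overlap, and the log2 difference was 0.72 (SE 0.18, adjusted p = 0.0384). The median of the list was 0.65 over both days, -0.10 on day 3 and 1.03 on day 7. The call of Irf4 was kept without each mouse in turn, and that of Slamf7 was lost in 7 of 12 such fits, with the highest adjusted p, 0.130, without ruxolitinib replicate 3 of day 3. Slamf7 was also not called without the 3 shallow lanes (0.81, adjusted p = 0.0756).

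Gzma, a protease of cytotoxic granules, was the only called gene of the 18 tested NK cell and cytotoxic genes. It was 41.8, 27.8 and 42.5 in venetoclax mice and 11.01 (in the shallowest lane and not above background), 13.8 and 7.44 in ruxolitinib mice on day 3, with no overlap. On day 7 it was 26.1, 42.7 and 18.1 after venetoclax and 18.04, 14.1 and 21.7 after ruxolitinib, and the groups overlapped. The log2 difference was 1.11 over both days (SE 0.26, adjusted p = 0.0265), 1.69 on day 3 (adjusted p = 0.0169) and 0.60 on day 7 (adjusted p = 0.820). The call was lost in 5 of 12 fits that left out 1 mouse, with the highest adjusted p, 0.102, without ruxolitinib replicate 3 of day 3. It was also lost without the 3 shallow lanes (1.03, adjusted p = 0.110). The median of the list was 0.03, the same as that of all genes to 2 decimals. The 3 NK cell markers Ncr1, Klrd1 and Klrk1 summed to 35.01 to 71.2 scaled counts in venetoclax mice and 34.7 to 103 in ruxolitinib mice, and none of them was called. Of the 3, 1 was above background in all 6 venetoclax lanes and 0 in all 6 ruxolitinib lanes, so these sums include counts at background.

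T cell genes other than Il2ra had differences mostly below 0 and were not called. Of 24 tested members 17 were below 0 (261 of 575 among all genes), 4 were lower at an unadjusted p under 0.05 (4% of all genes), and the median was -0.23. Thy1, a surface protein of T cells and stem cells, was 6.18 to 28.5 (median 14.3) in venetoclax mice and 19.8 to 38.5 (median 27.6) in ruxolitinib mice, a log2 difference of -0.74 (adjusted p = 0.0969). Cd8a was above background in 0 of 6 venetoclax lanes and 4 of 6 ruxolitinib lanes, so it was tested only through the latter, and no difference is given for it. The 5 T cell markers Cd3e, Cd3d, Cd3g, Cd4 and Cd8a summed to 32.2 to 61.6 after venetoclax and 44.6 to 99.1 after ruxolitinib. Only 1 of the 5 was above background in all 6 lanes of each group. The sums therefore include counts at background, and no difference is read from them.

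H2-Eb1 and H2-DMb2 were the MHC-II genes downregulated in venetoclax relative to ruxolitinib mice. H2-Eb1, the beta chain of I-E, was 155, 173 and 134 in venetoclax mice and 226, 231 and 273 in ruxolitinib mice on day 3. On day 7 it was 136, 104 and 121 after venetoclax and 222, 210 and 174 after ruxolitinib. The highest venetoclax mouse was below the lowest ruxolitinib mouse, at 173.0 and 173.9 scaled counts. The log2 difference was -0.71 (SE 0.14, adjusted p = 0.00762), with -0.67 on day 3 and -0.76 on day 7, neither called on its own day. These are RNA counts, and whether I-E protein was present or changed in these mice was not tested.

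H2-DMb2, a chain of the H2-DM peptide-loading complex, was 16.5, 20.6 and 20.2 in venetoclax mice and 44.03, 49.9 and 45.9 in ruxolitinib mice on day 3, and 29.5, 33.2 and 32.2 against 34.0, 66.1 and 62.1 on day 7. The 6 mice of each drug did not overlap. The log2 difference was -1.001 (SE 0.20, adjusted p = 0.00762), and that of the day 3 mice alone was -1.31 (adjusted p = 0.0180). H2-DMb1, a close copy of this gene, had a difference of -0.26 (adjusted p = 0.861), and whether the 2 probes share signal was not tested. The calls of H2-Eb1 and H2-DMb2 were kept without each mouse in turn and without the 3 shallow lanes.

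**Figure D2:**
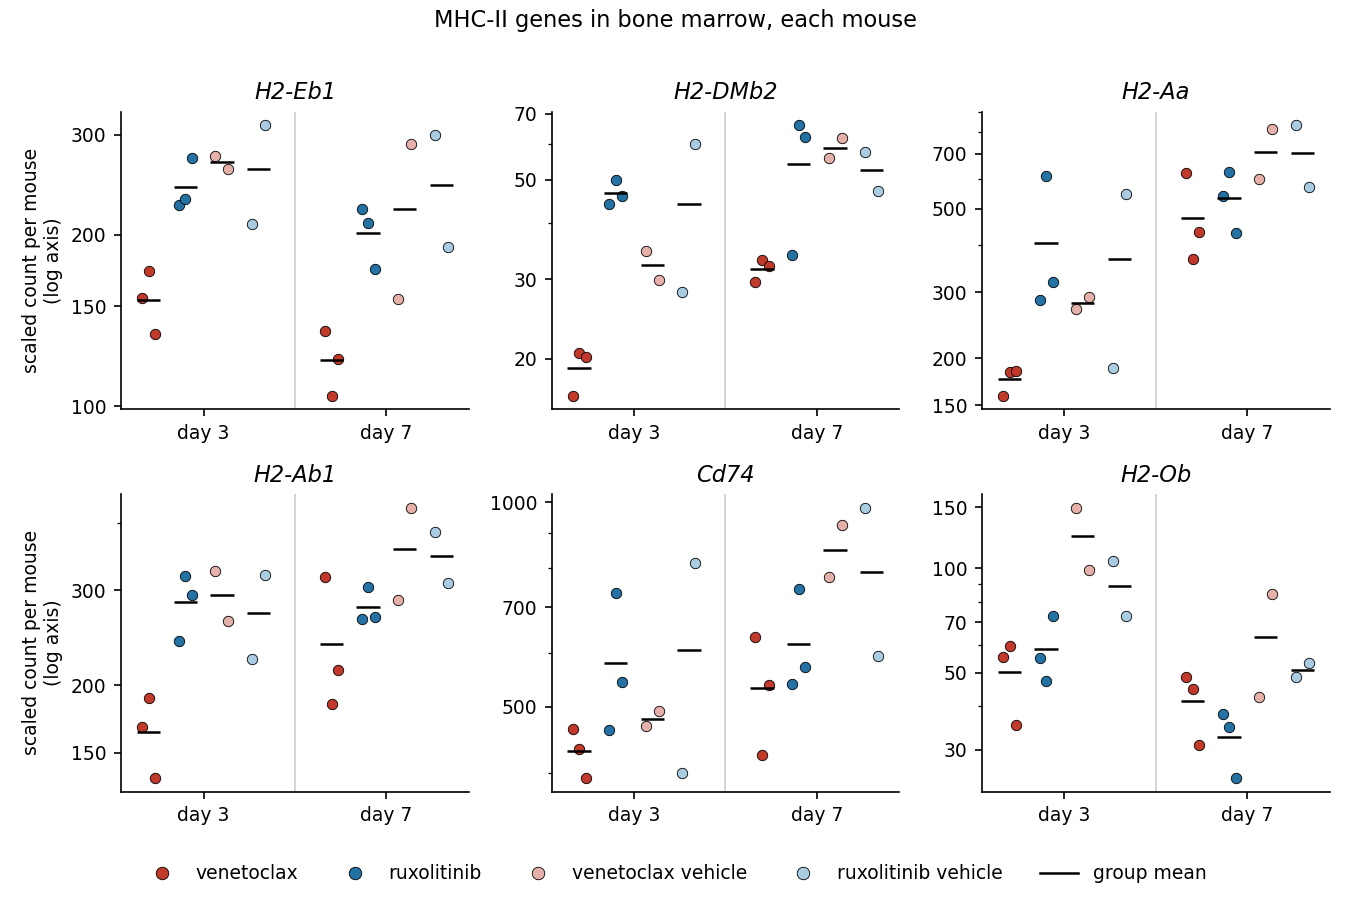
Scaled counts per mouse (log axes) of 6 MHC-II genes on days 3 and 7, for venetoclax and ruxolitinib mice and the mice given each vehicle; each point is 1 mouse and each line a group mean. H2-Eb1 and H2-DMb2 are lower in all 6 venetoclax mice than in any ruxolitinib mouse, H2-Aa is apart on day 3 only, and H2-Ob overlaps on both days.

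The classical chain gene H2-Aa was 159, 184 and 186 in venetoclax mice and 286, 610 and 319 in ruxolitinib mice on day 3, and 620, 368 and 432 against 541, 625 and 432 on day 7. The groups were apart on day 3 and overlapped on day 7. Its log2 difference was -1.24 on day 3 (adjusted p = 0.0169), -0.18 on day 7 (adjusted p = 0.954) and -0.70 over both days (adjusted p = 0.0969), and the change between days was not called (adjusted p = 0.791). Without 1 mouse the difference over both days was -0.86 to -0.43, called in 1 of 12 such fits (adjusted p up to 0.270). H2-Ab1 had -0.83 on day 3, -0.23 on day 7 and -0.52 over both (adjusted p = 0.0969). Cd74, the invariant chain, had -0.33 over both days (adjusted p = 0.349), and H2-Ob, a chain of the H2-DO modulator of H2-DM, had -0.03 (adjusted p = 0.993), with a sign that changed with the test used. Of the 8 tested members all were below 0, 2 were called and 6 had an unadjusted p under 0.05, where 4% of all genes were lower at that threshold. The median was -0.58 over both days, -0.66 on day 3 and -0.22 on day 7, and all 8 were also below 0 with TMM, total count and DESeq2 scaling.

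Groups of 6 mice that did not overlap were found for 7 genes (Rag1, Il2ra, Slamf7 and Map3k1 higher after venetoclax, and H2-Eb1, H2-DMb2 and Ccr6 lower), which is 1.22% of the genes tested. Of these, Ccr6 was at background in 5 of 6 venetoclax and 2 of 6 ruxolitinib lanes, so its order is not a measured difference. Rag1 and Il2ra were above background in all 6 venetoclax lanes but in only 4 of 6 ruxolitinib lanes. The place of the other ruxolitinib mice in their order is therefore uncertain. Map3k1, a MAP kinase kinase kinase that was named after its values were seen, had a log2 difference of 0.48 and was not called (adjusted p = 0.0969).

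MHC class I processing and presentation genes had no called member among 16 tested. Their median was 0.19, with 13 above 0, and 3 were higher and 0 lower at an unadjusted p under 0.05 (7.13% and 4% of all genes). Nlrc5, the transactivator of MHC class I genes, was 20.3 to 50.5 (median 35.8) in venetoclax mice and 14.8 to 27.5 (median 19.9) in ruxolitinib mice, a log2 difference of 0.72 (adjusted p = 0.0969). Cd1d1, which presents lipids to NKT cells, had a difference of 0.55 (adjusted p = 0.108), and the peptide transporter gene Tap1 one of 0.30 (adjusted p = 0.499).

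Of 30 tested interferon-inducible genes, 0 were called by edgeR over both days, 2 were higher and 2 lower at an unadjusted p under 0.05, and the median was -0.11. Rsad2, an antiviral enzyme, was 50.5 to 78.5 (median 69.0) in venetoclax mice and 55.9 to 135 (median 90.4) in ruxolitinib mice, a log2 difference of -0.43 (adjusted p = 0.285). On day 3 alone its groups did not overlap, with a highest venetoclax mouse of 78.5 and a lowest ruxolitinib mouse of 99.1 (-0.74, adjusted p = 0.181). Ifit3 had -0.11 (adjusted p = 0.991), Isg15 -0.21 (adjusted p = 0.932) and Oas2 0.32 (adjusted p = 0.712). Bst2 (tetherin), which is also a plasmacytoid dendritic cell marker, had -0.52 (adjusted p = 0.0969) and did not overlap within either day, with venetoclax mice up to 124.6 and ruxolitinib mice from 125.03 on day 3, and up to 106 and from 113 on day 7. Neither Rsad2 nor Bst2 was called over both days or on either day. The groups of a day are small and can be apart by chance, so these orders are not read as differences. The RNA sensor gene Ddx58 had 0.46 (adjusted p = 0.246). The interferon genes Ifnb1, Ifna1 and Ifng were above background in 0 of 12 lanes and the NK receptor gene Klrb1 in 1 of 12, so they were not tested.

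Of 13 tested JAK, STAT and SOCS genes 0 were called and 0 had an unadjusted p under 0.05, with a median of -0.01. Socs1, a feedback inhibitor of JAKs, had a difference of 0.68 at a mean of 9.21 scaled counts (adjusted p = 0.537), and Stat6 had 0.17 (adjusted p = 0.820). Of 12 tested BCL-2 family and apoptosis genes 0 were called, also with 0 at an unadjusted p under 0.05. Bcl2, the target of venetoclax, was 9.48 to 27.8 (median 24.3) after venetoclax and 12.4 to 42.2 (median 21.1) after ruxolitinib, a log2 difference of -0.22 (adjusted p = 0.901), and its relative Bcl2l1 had 0.30 (adjusted p = 0.712).

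Of 15 tested stromal niche genes 13 were below 0 (261 of 575 among all genes) and 1, Cxcl12, was called lower after venetoclax. At an unadjusted edgeR p under 0.05, 4 were lower and 0 higher (4% and 7.13% of all genes). The list median was -0.14, and the median between the vehicles was -0.27. Cxcl12 was also the one called gene among 31 chemokine and chemokine receptor genes, whose median was -0.12, with 4 lower and 0 higher at that threshold. Cxcl12, the chemokine that retains stem cells and B cell precursors in marrow, was 62.7, 39.1 and 52.6 in venetoclax mice and 93.6, 129 and 181 in ruxolitinib mice on day 3, and 73.0, 54.5 and 110 against 73.8, 101 and 363 on day 7. The groups were apart on day 3 and overlapped on day 7. The log2 difference was -1.19 (SE 0.30, adjusted p = 0.0384), and the call was lost in 8 of 12 fits that left out 1 mouse, with the highest adjusted p, 0.130, without ruxolitinib replicate 3 of day 3. Without the 3 shallow lanes it was -0.80 (adjusted p = 0.191). Col1a1, a chain of type I collagen, had -1.32 (adjusted p = 0.0789), and the venetoclax vehicle was below the ruxolitinib vehicle by more than this (-1.98, unadjusted p = 0.00151, adjusted p = 0.488). The stromal markers Cxcl12, Col1a1 and Col3a1 summed to 44.3 to 132 in venetoclax mice and 84.5 to 404 in ruxolitinib mice, with 1 of the 3 above background in all 6 lanes of each group. The part of stromal RNA in the other differences was not tested.

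By edgeR no called gene was found in the lists of neutrophil, monocyte and macrophage, eosinophil and mast cell, dendritic cell, megakaryocyte, stem and progenitor, endothelial, cell division, inflammasome and immediate early genes. At an unadjusted p under 0.05 each of these lists held at most 1 member, except that of dendritic cells with 3 lower. Their medians lay between -0.29 for dendritic cell genes and 0.13 for immediate early genes. Neutrophil genes, the most abundant in the marrow, ranged from -0.21 to 0.21 over 19 members, among them Csf3r, the G-CSF receptor (0.21, adjusted p = 0.822), and Ncf4, an oxidase subunit (0.15, adjusted p = 0.861). Named members of the other lists were Cd68 (-0.33, adjusted p = 0.613) and C1qb (-0.38, adjusted p = 0.431) of macrophages, Ms4a2 (0.54, adjusted p = 0.266) and Prg2 (0.40, adjusted p = 0.529) of mast cells and eosinophils, a list with 3 members above 0 and 5 below and a median of -0.08. Of megakaryocyte and platelet genes, Ppbp had -0.50 (adjusted p = 0.461) and Thbd 0.35 (adjusted p = 0.811), with 2 of 8 above 0. Of endothelial genes, Pecam1 had 0.55 (adjusted p = 0.136) and Kdr was above background in only 4 of 12 lanes, with 6 above 0, 6 below and a median of -0.01. Tfrc, the transferrin receptor of dividing and erythroid cells, had -0.13 (adjusted p = 0.948).

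**Figure D3:**
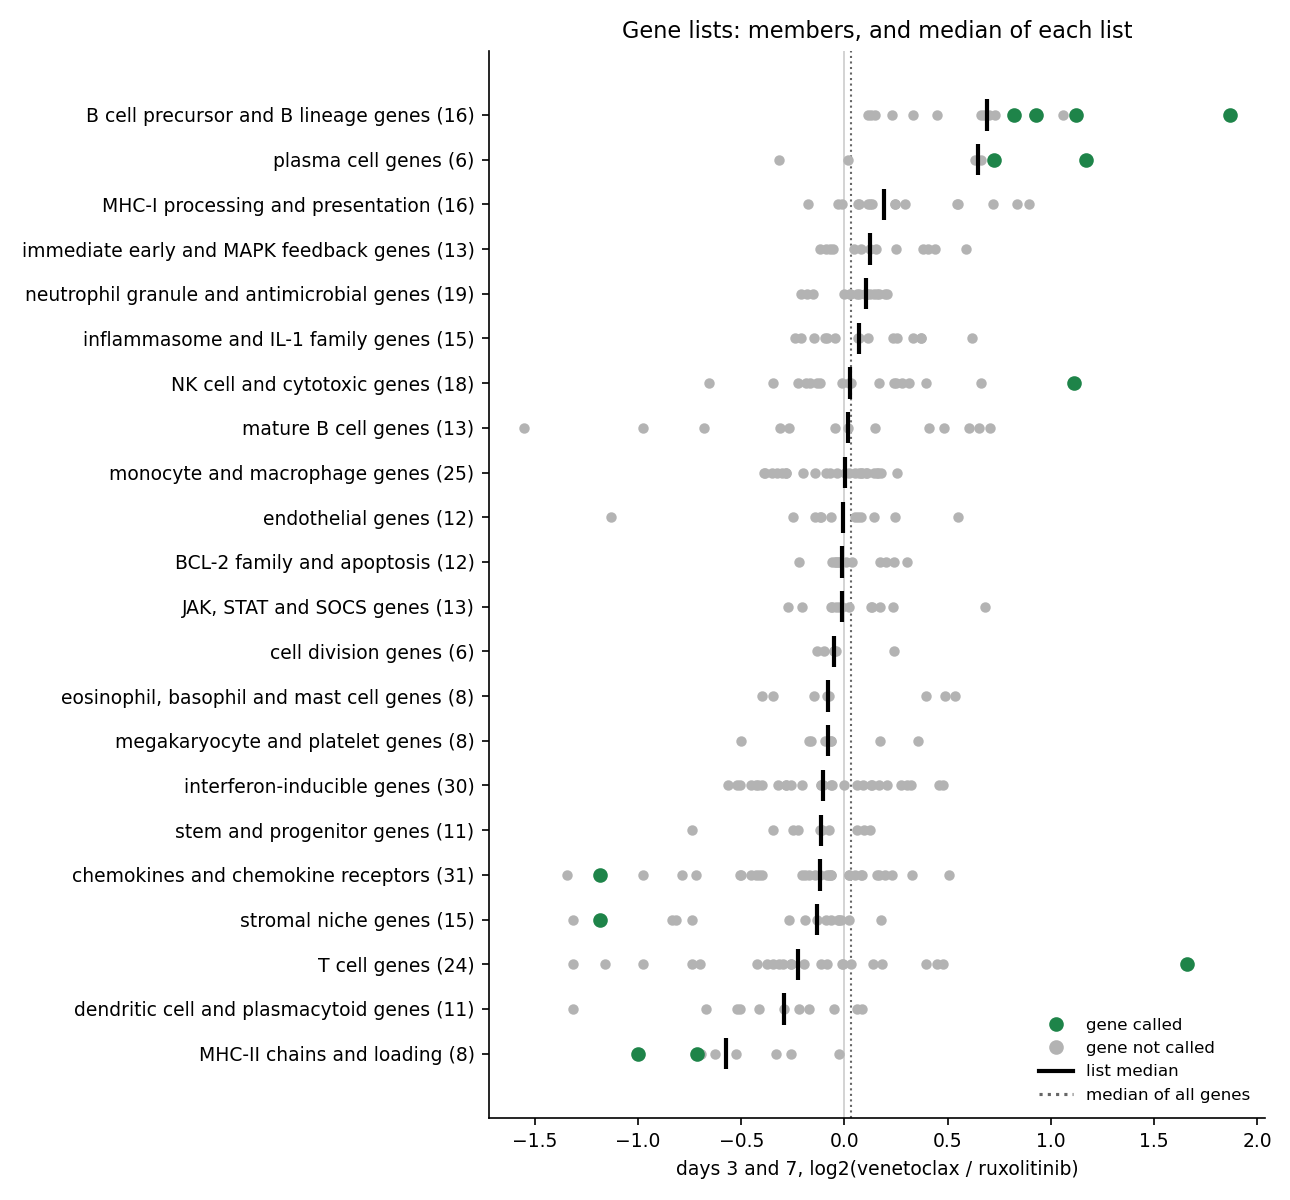
Log2 difference between venetoclax and ruxolitinib mice over days 3 and 7 (horizontal axis) for the tested members of 22 gene lists, whose number stands after each name; green points are called genes, grey points other genes, black bars list medians and the dotted line the median of all 575 genes. The B lineage list lies furthest to the right, with a median of 0.69, and the MHC-II list furthest to the left, with a median of -0.58.

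The 2 days were then taken apart. On day 3, 6 genes were called (1.04%): Igll1, Rag1, Gzma and Pax5 higher after venetoclax, and H2-Aa and H2-DMb2 lower. On day 7, 5 genes were called (0.87%): Il2ra, Cd79b, Rag1 and Irf4 higher, and Igll1 lower. Rag1 and Igll1 were called on both days, the latter in opposite directions. Across the 575 genes, 52.5% had the same sign on both days (Pearson r 0.22, Spearman rho 0.14, across genes, which are not independent replicates). A day holds 3 mice per drug and is also a run. Groups this small can be apart within a day by chance. The share of all genes that were apart within a day is not given here. Such an order alone is therefore not read as a difference.

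**Figure D4:**
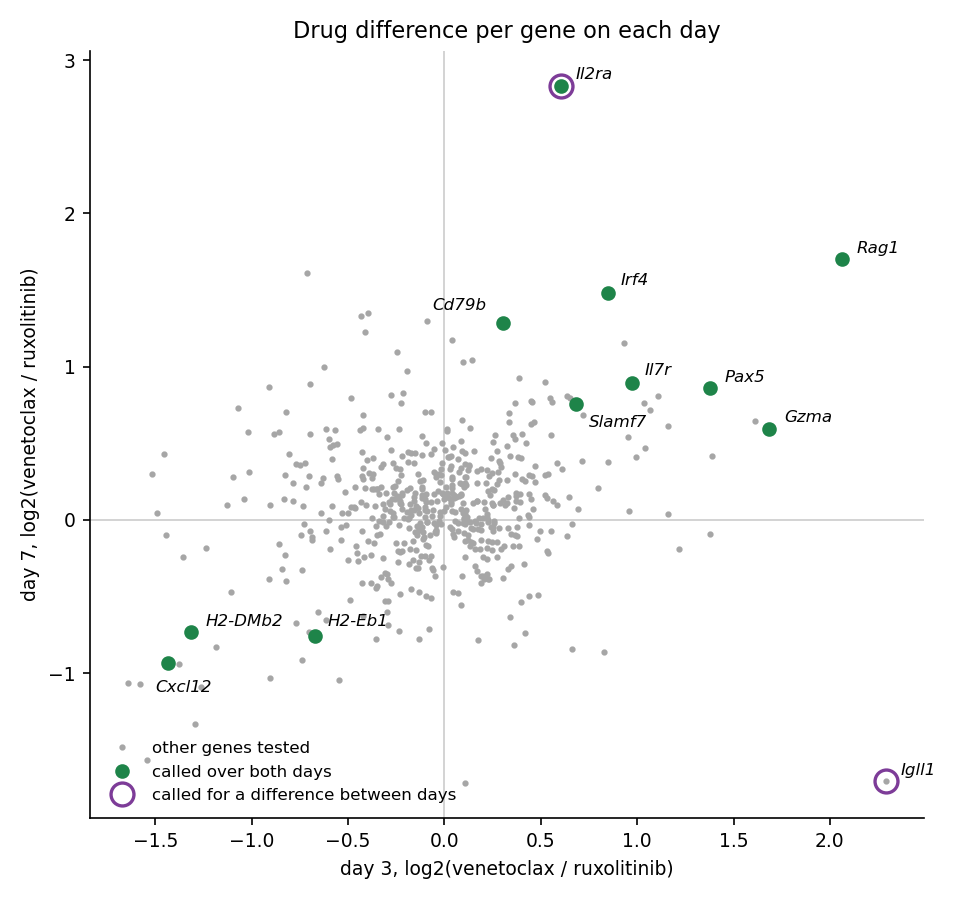
Log2 difference between venetoclax and ruxolitinib mice on day 3 (horizontal axis) and day 7 (vertical axis) for each of 575 genes; green points are the 11 genes called over both days and purple rings the 2 genes called for a change between days. The green points lie at the upper right or lower left, which choosing them over both days largely fixes, and Igll1 lies at the lower right.

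Since the drugs were given in different vehicles, the vehicle mice were compared in the same way. No gene was called between the vehicles over days 3 and 7 (0% of 575 in edgeR, also 0 with limma and DESeq2), and 18 genes had an unadjusted p under 0.05. For the B-lineage list the median vehicle difference was 0.00, and for the MHC-II list it was -0.08. The drug difference minus the vehicle difference was called for 0.348% of genes, namely Rag1 (1.75, SE 0.39, adjusted p = 0.0390) and Il2ra (1.66, SE 0.33, adjusted p = 0.0232). These calls were not stable: Rag1 kept its call in 3 of 6 alternatives and 6 of 20 fits without 1 mouse, and Il2ra in 3 of 6 and 12 of 20, while the values stayed between 1.53 and 1.95 for Rag1 and between 1.52 and 1.92 for Il2ra. The 2 called MHC-II genes had -0.62 (H2-Eb1, adjusted p = 0.634) and -0.82 (H2-DMb2, adjusted p = 0.570) after the vehicle difference was taken off, which was not called.

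Each drug was also set against its own vehicle, with 4 vehicle mice over both days. In ruxolitinib mice Rag1 and Pax5 were downregulated relative to vehicle (-1.30 and -1.10, both with adjusted p = 0.0405), the only called genes and 0.348% of those tested. The median of the B-lineage list was -0.72 against the ruxolitinib vehicle and 0.14 for venetoclax against its vehicle, where Rag1 had 0.45 (adjusted p = 0.514) and Pax5 -0.21 (adjusted p = 0.757). In venetoclax mice H2-Eb1 was downregulated relative to vehicle (-0.81, SE 0.18, adjusted p = 0.0350), and the other call, Ccr6, rests on venetoclax counts at background in 5 of 6 lanes, so no size is given. These are also 0.348% of those tested. The median of the MHC-II list was -0.75 against the venetoclax vehicle and -0.16 for ruxolitinib against its vehicle, where H2-Eb1 had -0.19 (adjusted p = 0.961). Cxcl12 was not called against either vehicle (0.26 for venetoclax, 0.71 for ruxolitinib). Between the vehicles it had 54.8 ± 18.6 and 90.9 ± 22.9 scaled counts (SD, n = 4 each), a log2 difference of -0.72 (SE 0.37, edgeR adjusted p = 0.999), and the drug difference minus this was -0.45 (adjusted p = 0.993). The direct comparison and these contrasts share the same drug mice.

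**Figure D5:**
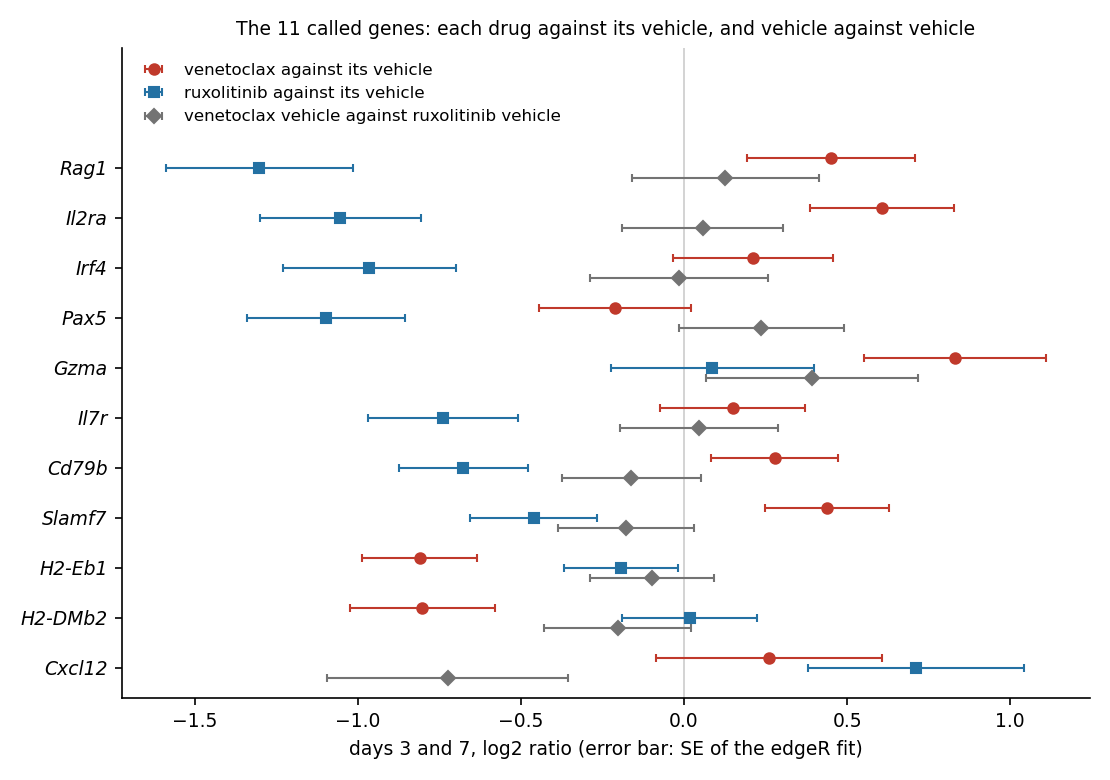
Log2 ratio over days 3 and 7 (horizontal axis) of each drug against its vehicle and of vehicle against vehicle for the 11 called genes; error bars are the SE of the edgeR fit. Rag1, Il2ra, Irf4, Pax5, Il7r, Cd79b and Slamf7 lie to the left in ruxolitinib mice, and H2-Eb1 and H2-DMb2 lie to the left in venetoclax mice. Rag1, Il2ra, Gzma and Slamf7 are among the genes that lie to the right in venetoclax mice, and Cxcl12, Irf4 and Cd79b are others.

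For 6 named MHC-II genes the drug difference on days 3 and 7 was less negative than on day 1, by the test of the change, although for H2-Ob this was kept in only 1 of 5 alternatives (adjusted p up to 0.156). On day 1, 71 genes were called between the drugs (12.3%), 15 higher and 56 lower after venetoclax, and 58 genes (10.1%) were called for a difference between day 1 and the mean of days 3 and 7, 49 of them below 0. The latter count was 25 to 52 in 5 alternatives and 15 to 61 without 1 mouse, the 15 without venetoclax replicate 2 of day 1. Venetoclax replicate 1 of day 1 had the shallowest of the 33 lanes, with 18056 counts and 40.1% of endogenous probes above background. H2-DMb2 had -2.94 on day 1 and -1.001 on days 3 and 7 (change -1.91, adjusted p = 0.00133), and Cd74 had -2.27 and -0.33 (change -1.93, adjusted p = 6.8e-05). On day 1 the median of the B-lineage list was -0.37, beside -0.20 for all genes, Rag1 had 0.28 (adjusted p = 0.647) and Cd79b had -1.54 (adjusted p = 0.000385), and the changes of Rag1 (-1.60, adjusted p = 0.0160) and Cd79b (-2.33) were called, that of Rag1 in only 2 of 5 alternatives (adjusted p up to 0.112). The interferon-inducible genes Oas2, Isg15 and Ifit3 were at 2.31, 2.17 and 2.24 on day 1, and their changes were called as well. The change of Ifit3 fell as low as 1.15 without 1 mouse, with adjusted p up to 0.415, and was called in 17 of 18 such fits. Its venetoclax mice of day 1 had 16.6 (not above background), 52.3 and 14.8 scaled counts. Isg15 was above background in 1 of 3 ruxolitinib and 2 of 3 venetoclax lanes of day 1, so the sizes of its difference and change are uncertain. Of the 11 called genes, 4 were also called on day 1 and 8 had the same sign there.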

How the data were processed

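Raw nCounter counts of 750 endogenous, 20 housekeeping and 8 negative probes per lane were used as deposited by the authors; their own normalisation (nCounter Advanced Analysis) is not in these counts. The panel is a PanCancer Immune Profiling Panel for mouse in the study's methods and an Immunology Panel in the design text. The header of the day 3 run reads Day 2, and the labels' day was used. Each lane was 1 mouse, so p-values measure the spread between mice.

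Each lane was scaled to its 11 housekeeping probes (geometric mean) that were above background (mean plus 2 SD of the negative probes) in all 33 lanes. Genes above background in at least 3 of the 12 lanes were tested (575, with 175 left out) by edgeR 4.0.16 quasi-likelihood tests in R 4.3.3, with day as a block and Benjamini-Hochberg adjustment over all genes (common dispersion 0.0422, a biological CV of 20.5%, 9 residual degrees of freedom). Limma 3.58.1 and DESeq2 1.42.0 were alternatives, as were TMM and total-count scaling, other filters, a replicate block and leaving out each mouse. Exact permutations within days were two-sided. Figures were drawn with Python 3.11.15 and matplotlib 3.10.9. On simulated counts for 575 genes of the days 3 and 7 comparison, with 200 changed, 87.3% of 2-fold and 100% of 4-fold changes were recovered, and 0 genes were called where none was changed. The simulation changed a larger share of genes than was called here, drew from dispersions fitted to these data and had no day effect. Its recovery is therefore not an estimate of the power of the real comparison. The naming rule gave 57 genes: called genes with a mean scaled count of at least 20 (up to 12 each way, filled to 6 each way by smallest p), genes the study names, Igll1 and Il2ra from earlier results, each list's called members or else its 2 with the smallest p, and up to 4 called genes of each other fit. Of these, the report prints those its results turn on. The members and lists were chosen with earlier results of these data known.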

Additional observations from a re-analysis of the deposited data

Results flagged for a closer look

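Results are given here where the drug difference itself differed between days or from the vehicle difference, by an interaction term in edgeR. Groups held 2 or 3 mice, so single mice that stand apart could not be tested for. Day is also run, and the cause was not tested.

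Between days 3 and 7, the difference of Il2ra changed by 2.23 and that of Igll1 by -4.00 on the log2 scale. Relative to the vehicle difference, the drug difference was 1.75 for Rag1 and 1.66 for Il2ra.

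The drug difference on day 1 minus that on days 3 and 7 was below 0 for 13 of the 17 named genes called for it, beside 49 of the 58 called among all genes, whose median over 575 genes was -0.23. That count of 58 was 25 to 52 in 5 alternatives and fell to 15 without venetoclax replicate 2 of day 1. Among B-lineage and lymphoid genes it was -1.60 for Rag1, -2.18 for Il2ra, -1.16 for Pax5 and -2.33 for Cd79b. It was -3.34 for Tnfrsf13c, of uncertain size, since its venetoclax mice of day 1 had only 2.49 to 11.1 scaled counts, close to background. Among MHC-II genes it was -1.91 for H2-DMb2, -1.40 for H2-Eb1, -1.97 for H2-Aa, -1.17 for H2-Ab1, -1.22 for H2-Ob and -1.93 for Cd74. It was -1.09 for Pecam1 and -1.24 for Dusp6. It was above 0 for 4 interferon-inducible genes, at 1.14 for Rsad2, 2.36 for Ifit3, 2.00 for Oas2 and 2.42 for Isg15, which was above background in 1 of 3 ruxolitinib lanes of day 1. The call of Pax5 was lost in all 5 alternatives run, those of H2-Ob and Pecam1 in 4 of 5, and that of Rag1 in 3 of 5. The calls of H2-Ab1, Rsad2 and Ifit3 were each lost in 1 of 5. Without 1 mouse the change of Ifit3 fell as low as 1.15, with adjusted p up to 0.415.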

How the results depend on the processing

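The direct comparison called 11 genes. The count was 1 with limma, 2 with limma after background subtraction, 18 with all 33 mice in 1 model, 6 without the day term, 6 on day 3 only, 5 on day 7 only and 7 without the 3 lanes under 60000 counts, and 6 to 14 when 1 mouse was left out. With the replicate block it was again 11. Same-numbered mice had correlations of deviations from -0.30 to 0.01, so the numbers do not pair them. All 11 called genes kept their direction in the 12 alternatives and 12 fits without 1 mouse. The vehicles differed in 0 genes throughout.

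The drug difference minus the vehicle difference (2 genes) gave 0 with total count, limma and, chosen after seeing the data, without the shallow lanes, and 0 to 4 without 1 mouse. The change between days 3 and 7 (2 genes) gave 1 with total count, limma, DESeq2 and, chosen after seeing the data, without the shallow lanes and with the replicate block, and 1 to 3 without 1 mouse. The change from day 1 (58 genes) gave 31 with TMM, 30 with total count, 25 with limma and 29 with DESeq2. It gave 15 to 61 without 1 mouse, the 15 without venetoclax replicate 2 of day 1.

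Of the named genes that were not called, the sign turned for H2-Ob (0.053 with limma, 0.16 after background subtraction, 0.0034 without the day term, 0.029 with the replicate block, 0.18 on day 7, -0.11 to 0.10 without 1 mouse), Oas2 (-0.028 on day 7), Isg15 (0.21 on day 7), Igll1 (-0.052 without the day term, -1.71 on day 7, -0.35 to 0.62 without 1 mouse), Bcl2l1 (-0.10 on day 3), Tfrc (0.28 on day 7) and Ifit3 (-0.28 to 0.18 without 1 mouse). Genes outside the named ones are not listed here. The cause was not tested. Shallow lanes limit genes with low counts.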
